A study of Mus musculus with 10 samples.

Results

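Macrophages and related myeloid cells of skeletal muscle were followed through 34 genes in desmin knock-out and wild-type mice. The genes were chosen by name as markers of leukocytes, of macrophages and of macrophage states, with earlier results of these data known. Their rows were found by Ensembl identifier among the 54232 genes of the deposited table. The 34 genes comprised 7 general leukocyte genes, 7 genes of macrophage identity, 5 Fc receptors and adaptors, 2 subunits of the phagocyte oxidase, 3 chains of complement C1q and 2 MS4A genes. The other genes were 4 markers of resident macrophages (Cd163, Mrc1, Folr2 and F13a1) and 4 genes known from macrophages at sites of tissue damage (Trem2, Gpnmb, Lgals3 and Cd68).

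Muscle macrophages lie between the fibers and around the vessels, and their survival depends on the receptor Csf1r and its ligands Csf1 and Il34. In undamaged muscle most of them carry scavenger and endocytic receptors such as Cd163 and Mrc1. After fiber damage, monocytes enter from the blood, and macrophages that take up debris raise the lipid receptor Trem2, the lysosomal glycoprotein Gpnmb and the lectin Lgals3.

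RNA was sequenced from the gastrocnemius muscle, which the study's legend gives together with the plantaris, of mice at 3 months of age. One group consisted of 5 homozygous mice without desmin (Des -/-, B6J.129Sv-Destm1Cba/Cscl) and the other of 5 wild-type littermates (Des wt/wt), with no treatment given in the labels. Desmin, the intermediate filament protein of muscle, is lost from the germline on, so every cell of these mice lacked the intact gene. The labels give the strain name to both groups. The study's methods describe the RNA of the 5 muscles of a genotype as pooled, but each mouse has its own column in the table, and each column was taken as 1 replicate.

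The deposited values are regularized log (rlog) values of DESeq2. These are log2-scale expression values that are scaled for library size and drawn towards each gene's mean, so that differences are smaller than log2 fold changes of counts. Depth is unknown from them, and they are not divided by gene length, so levels were compared between mice and not between genes. All differences below are knock-out minus wild-type on the log2 (rlog) scale. A gene was tested with limma where its mean over the 10 mice reached log2(10), or 3.32, which left 14289 genes, and genes with a Benjamini-Hochberg adjusted p under 0.05 were counted as changed. All 34 macrophage and myeloid genes passed this limit, and none had a value of 0 in any mouse. Fcgr1 passed only through the knock-out mice, since its wild-type mean was 3.31.

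The targeted gene Des was at 11.84 ± 0.06 in knock-out and 16.58 ± 0.67 in wild-type mice (SD, n = 5 each), with no overlap. The fast myosin Myh4 lay between 19.68 and 20.97 in all 10 mice, so this marker of fast fibers, the main fibers of the labelled muscle, was present throughout. Wild-type mouse 3 stood apart, and its correlation with the other wild-type mice averaged 0.982, compared with 0.989 to 0.991 for the others and 0.996 to 0.997 among knock-out mice. Values without this mouse are therefore given where a difference moved by over 1.5 times.

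Of the 34 genes, 2 rose in muscle without desmin, the lectin gene Lgals3 and the glycoprotein gene Gpnmb, and none fell (limma, adjusted p under 0.05). Across all tested genes, 7.70% were higher and 5.99% lower in knock-out muscle by the same rule, or 13.7% in both directions together. The share of changed genes among the 34, 5.88%, was thus no larger than that among all genes. The other 32 genes differed by at most 0.40 in either direction, and their median difference was 0.06, beside -0.0029 for all tested genes. In whole muscle, fewer cells of a type and less RNA per cell cannot be told apart, and this holds for every gene below.

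At an unadjusted p under 0.05 (limma), 5 genes were higher, namely Lgals3, Gpnmb, Trem2, Cybb and Ms4a7, and none was lower, beside 14.5% and 13.1% of all tested genes, or 27.6% together. The mean was higher in knock-out mice for 19 of the 34 genes and for 49.5% of all tested genes. By the exact permutation test 4 genes were higher at a p under 0.05 and 0 were lower, beside 14.2% and 13.8% of all tested genes, or 28.0% together. The 5 values of each genotype did not overlap for 2 genes, Lgals3 and Trem2, both higher in knock-out mice, whereas 7.45% of all tested genes were separated in that direction and 6.97% in the other. The median difference of the 34 genes was 0.09 and changed to -0.03 without wild-type mouse 3. Without that mouse 2 genes were again called, Lgals3 and, in place of Gpnmb, Trem2. The summed level of the 34 genes, as 2 to the power of the rlog value, ran from 4631 to 6175 in knock-out and from 4619 to 5637 in wild-type mice, so that the ranges overlapped. For 22 of the 34 genes the 95% interval of the difference lay within 0.58 on either side of 0, which is 1.5-fold on this scale, and for 33 genes it lay within 1.

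**Figure D1:**
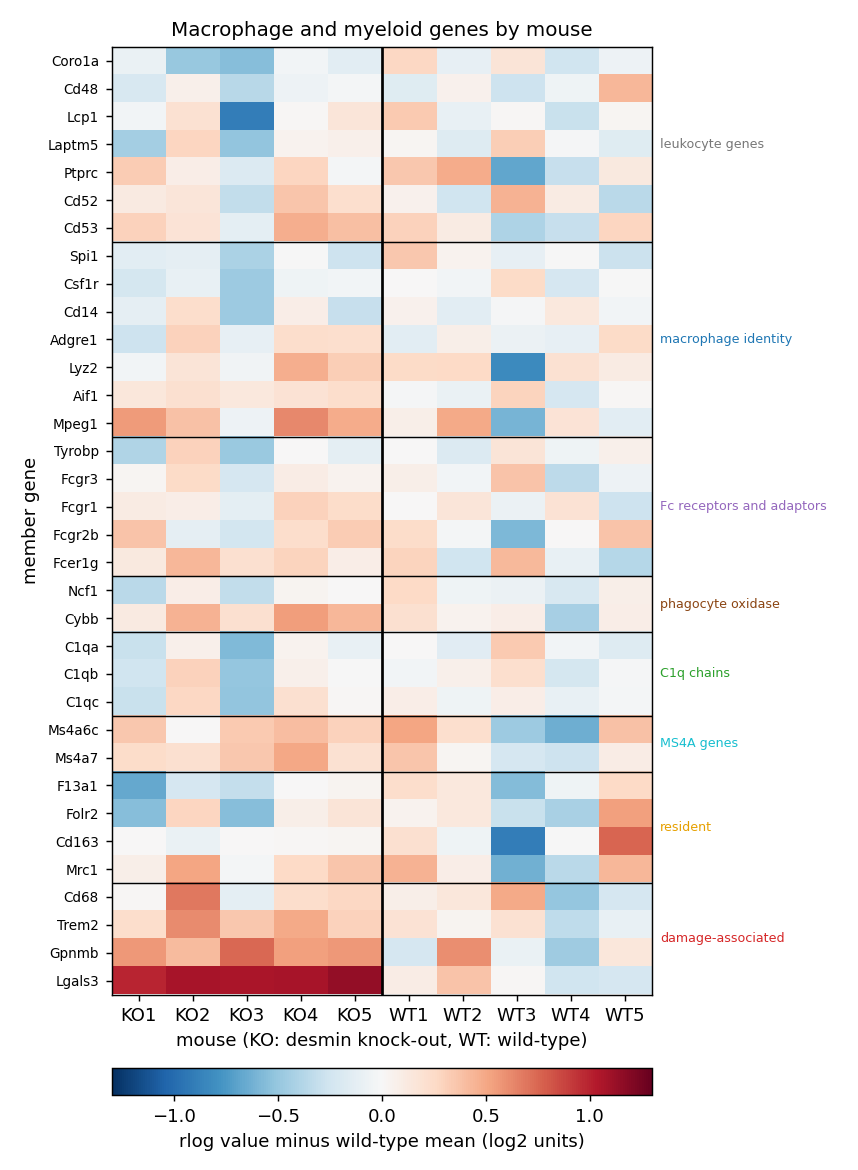
Deviation of each of the 34 genes from its wild-type mean (color, log2 units) in the 5 desmin knock-out (KO) and 5 wild-type (WT) mice, with the genes grouped by role. The row of Lgals3 is uniformly raised in KO1 to KO5, KO3 is pale blue to blue in many rows, and WT3 holds several of the lowest values.

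**Figure D2:**
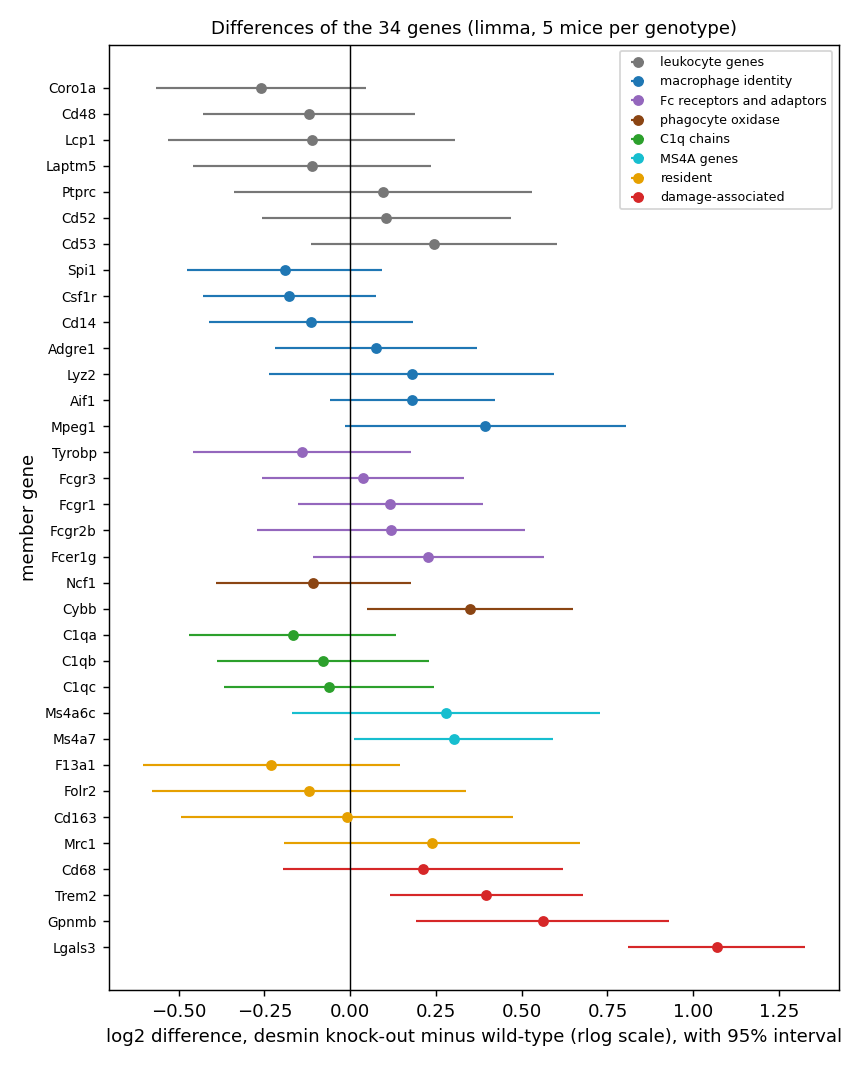
Difference between desmin knock-out and wild-type muscle for each of the 34 genes (points, log2 units on the rlog scale) with its 95% interval (bars, limma, 5 mice per genotype), colored by role. The bar of Lgals3 runs from 0.81 to 1.33 and lies apart from all others except that of Gpnmb.

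The genes known from macrophages at sites of damage were all higher on average in knock-out muscle, by 0.21 to 1.07, and 2 of these 4 passed the test. Lgals3 encodes galectin-3, a lectin that binds damaged membranes and is abundant in phagocytes. Its gene lies at chr14:47367751-47386160 on the plus strand of GRCm38 (ENSMUSG00000050335). The knock-out values of Lgals3 were 8.91, 8.99, 8.98, 8.99 and 9.06, and the wild-type values were 8.01, 8.29, 7.93, 7.66 and 7.70. The genotypes were widely separated, and the knock-out mice were nearly equal to each other. The difference in Lgals3 was 1.07 ± 0.12 (SE, 95% interval 0.81 to 1.33, adjusted p = 5.23e-05, limma), which is 2.10-fold on the rlog scale. The exact permutation p was 0.00794, the smallest that 5 against 5 mice can give. Among all tested genes Lgals3 ranked 205 by the size of its rise. Lgals3 was called under all 19 alternative settings, with differences between 0.94 and 1.16.

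Gpnmb, a transmembrane glycoprotein of lysosomes and a target gene of the MITF family of transcription factors, lies at chr6:49036546-49070929 on the plus strand (ENSMUSG00000029816). Gpnmb was at 6.86, 6.70, 7.04, 6.82 and 6.85 in knock-out mice, while wild-type mice were at 6.07, 6.90, 6.21, 5.83 and 6.44. Wild-type mouse 2 reached the level of the knock-out mice, while the other wild-type mice lay below all of them. Gpnmb rose by 0.56 ± 0.17 (SE, 95% interval 0.19 to 0.93, adjusted p = 0.0446, limma), or 1.48-fold on the rlog scale. The call was close to the threshold and was lost in 15 of 19 alternative settings, with adjusted p between 0.0051 and 0.103 over all of them. It was kept without wild-type mouse 2 (adjusted p = 0.0051, limma) and lost when any one of the other mice was left out (adjusted p between 0.0512 and 0.103, limma). With the replicate number as a block it was also lost (adjusted p = 0.0635, limma).

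Trem2, a receptor for lipids and cell debris, lies at chr17:48346401-48354147 on the plus strand (ENSMUSG00000023992) and signals through the adaptor Tyrobp. Its knock-out values were 4.12, 4.51, 4.24, 4.38 and 4.19, and its wild-type values were 4.08, 3.93, 4.09, 3.56 and 3.79. All knock-out mice were above all wild-type mice, but by as little as the step from 4.09 to 4.12. The difference in Trem2 of 0.40 ± 0.13 (SE, 95% interval 0.12 to 0.68) did not pass the adjusted test (adjusted p = 0.0618, limma, exact permutation p = 0.00794). Without wild-type mouse 3 the difference was 0.45 and passed it (adjusted p = 0.0354, limma). Trem2 passed in 3 of 18 alternative settings, with adjusted p between 0.0219 and 0.143 over all of them.

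Cd68, a glycoprotein of the lysosomal membrane that is used as a general marker of phagocytes, lies at chr11:69664213-69666153 on the minus strand (ENSMUSG00000018774). The knock-out values of Cd68 were 6.69, 7.36, 6.55, 6.90 and 6.94, and the wild-type values were 6.75, 6.82, 7.17, 6.17 and 6.46. The genotypes overlapped over most of their range, with the highest value in knock-out mouse 2 and the lowest in wild-type mouse 4. The difference was 0.21 ± 0.19 (SE, 95% interval -0.20 to 0.62, adjusted p = 0.499, limma). Without wild-type mouse 3, which was high for Cd68, it was 0.34 (adjusted p = 0.219, limma).

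The starts of these 4 genes are shown because the genes share a role while differing in how far they moved. Each sequence runs 5′ to 3′ from 250 bases before to 20 bases after the start given by RefSeq on GRCm38.p6, and only for Trem2 is that start also the GENCODE gene start. Capitals mark matches on either strand of TGANTCA and of GGAAGT, a core bound by PU.1, the product of Spi1. TGANTCA includes the core bound by AP-1, which has C or G at N, and is wider than that core. The 4 windows are chr14:47373610-47373879 (plus) for Lgals3, chr6:49036268-49036537 (plus) for Gpnmb, chr17:48346151-48346420 (plus) for Trem2 and chr11:69666151-69666420 (minus) for Cd68.
Lgals3: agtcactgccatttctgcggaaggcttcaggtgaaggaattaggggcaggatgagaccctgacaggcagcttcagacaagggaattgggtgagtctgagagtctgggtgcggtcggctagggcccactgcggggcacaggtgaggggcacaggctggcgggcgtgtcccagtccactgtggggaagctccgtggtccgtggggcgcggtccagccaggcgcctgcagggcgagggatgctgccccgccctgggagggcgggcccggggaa
Gpnmb: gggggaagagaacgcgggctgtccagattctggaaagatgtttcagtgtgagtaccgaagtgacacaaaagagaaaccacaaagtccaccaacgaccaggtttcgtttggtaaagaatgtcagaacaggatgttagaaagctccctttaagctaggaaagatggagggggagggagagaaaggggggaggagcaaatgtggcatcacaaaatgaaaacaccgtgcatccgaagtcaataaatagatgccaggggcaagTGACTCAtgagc
Trem2: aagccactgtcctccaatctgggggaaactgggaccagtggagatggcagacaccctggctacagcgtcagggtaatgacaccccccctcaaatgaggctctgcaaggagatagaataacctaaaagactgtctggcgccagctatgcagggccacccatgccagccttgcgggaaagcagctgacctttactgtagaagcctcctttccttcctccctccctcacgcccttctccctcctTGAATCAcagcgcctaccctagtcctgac
Cd68: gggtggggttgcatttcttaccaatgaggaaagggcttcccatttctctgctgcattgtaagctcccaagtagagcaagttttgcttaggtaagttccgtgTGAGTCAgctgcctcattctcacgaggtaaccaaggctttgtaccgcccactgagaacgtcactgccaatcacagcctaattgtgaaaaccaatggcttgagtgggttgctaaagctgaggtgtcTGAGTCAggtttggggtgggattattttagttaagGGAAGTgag
The match of TGANTCA in Gpnmb, TGACTCA, began at base 9 after the start, counting the start as base 1. The match in Trem2, TGAATCA, is outside the narrower AP-1 core. It began at base -9 before the start, where no base is numbered 0. The window of Cd68 held 3 matches, 2 of TGANTCA and 1 of GGAAGT, and that of Lgals3 held 0. Of the 34 genes 27 had a window in the RefSeq table, and 6 of these held TGANTCA (Cd68, Trem2, Cybb, Ms4a7, Folr2 and Gpnmb), beside 8.35% of 27025 genes. GGAAGT occurred in 16 of the 27 windows, beside 24.3% of all genes, and among them were 3 of the resident genes and 1 of the damage-associated genes. CACGTG, the core bound by the MITF and TFEB family, occurred in 0 of the 27, beside 7.45% of all genes. These letters are a description of the windows and were not tested as binding sites.

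The 4 resident markers did not differ by genotype at the threshold used, and their differences ran from -0.23 to 0.24. None of them had an unadjusted p under 0.05 (limma), and their median difference was -0.06. Cd163, the scavenger receptor for haemoglobin bound to haptoglobin, lies at chr6:124304656-124330527 on the plus strand (ENSMUSG00000008845). The knock-out values of Cd163 were 7.15, 7.06, 7.15, 7.16 and 7.17, and the wild-type values were 7.36, 7.09, 6.25, 7.14 and 7.91. The knock-out mice were nearly equal (SD 0.04), whereas the wild-type mice held both the lowest value, in mouse 3, and the highest, in mouse 5 (SD 0.60). The difference was -0.01 ± 0.22 (SE, 95% interval -0.49 to 0.47, adjusted p = 0.985, limma) and was -0.23 without wild-type mouse 3.

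Mrc1, the mannose receptor CD206, lies at chr2:14229392-14332057 on the plus strand (ENSMUSG00000026712). Mrc1 was at 7.66, 8.10, 7.56, 7.85 and 7.95 in knock-out mice, while wild-type mice were at 8.04, 7.67, 6.96, 7.24 and 8.02. The knock-out values fell within or just above the upper part of the wild-type range, and the lowest value was again that of wild-type mouse 3. The difference of 0.24 ± 0.20 (SE, 95% interval -0.19 to 0.67, adjusted p = 0.473, limma) shrank to 0.08 without this mouse.

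Folr2, a folate receptor of resident macrophages, lies at chr7:101839988-101857194 on the minus strand (ENSMUSG00000032725). The knock-out values of Folr2 were 5.08, 5.92, 5.08, 5.71 and 5.80, and the wild-type values were 5.68, 5.77, 5.35, 5.21 and 6.17. Knock-out mice 1 and 3 were the lowest of all, and the other 3 lay inside the wild-type range. The difference was -0.12 ± 0.21 (SE, 95% interval -0.58 to 0.34, adjusted p = 0.752, limma) and -0.19 without wild-type mouse 3.

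F13a1, the A subunit of coagulation factor XIII, which resident macrophages express, lies at chr13:36867178-37050244 on the minus strand (ENSMUSG00000039109). F13a1 was at 7.04, 7.49, 7.40, 7.71 and 7.74 in knock-out mice, while wild-type mice were at 7.93, 7.84, 7.14, 7.65 and 7.97. Apart from wild-type mouse 3, which was low, the wild-type mice sat near or above the upper end of the knock-out range. The difference was -0.23 ± 0.17 (SE, 95% interval -0.61 to 0.15, adjusted p = 0.423, limma) and -0.37 without that mouse (adjusted p = 0.0896, limma). With the mean of the 4 Y-linked transcripts as a covariate, it was -0.43 (adjusted p = 0.0482, limma), the only one of 19 alternative settings to give a call, with adjusted p up to 0.707 in the others.

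**Figure D3:**
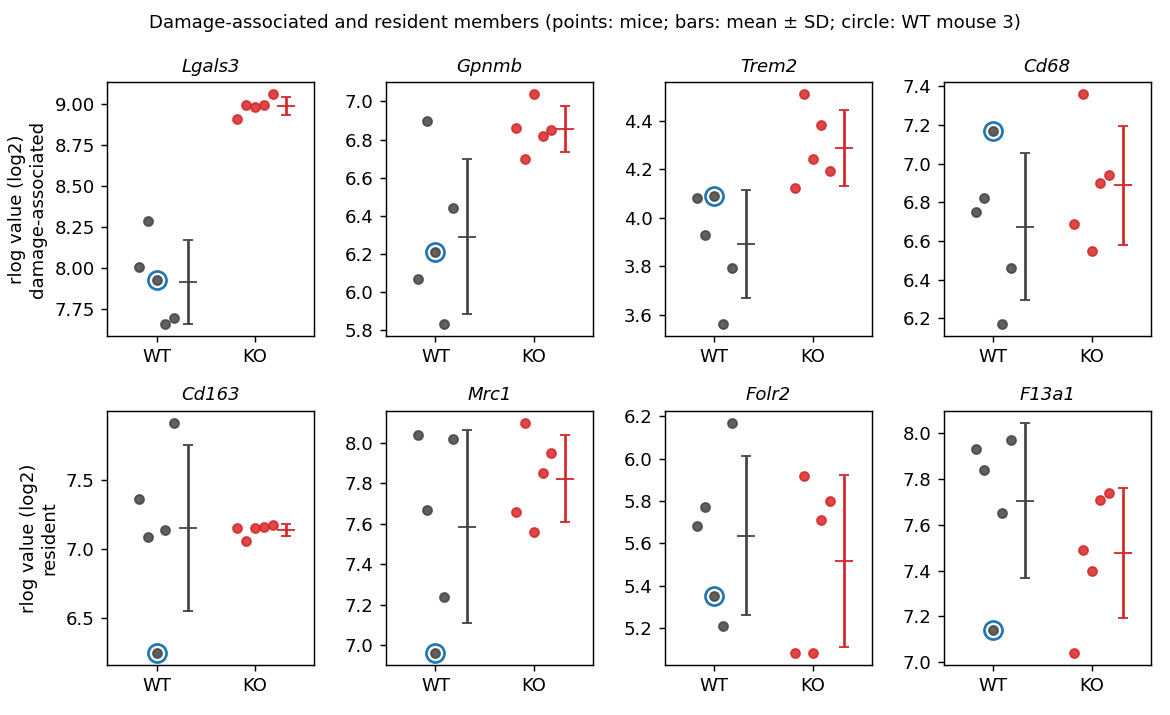
Values (rlog, log2 units) of the 4 damage-associated genes in the upper row and the 4 resident genes in the lower row, one point per mouse, with the mean and SD of each genotype (bars, n = 5) and wild-type mouse 3 circled. Lgals3 and Trem2 separate the genotypes, one wild-type mouse overlaps for Gpnmb, and the resident genes overlap, with wild-type mouse 3 lowest for Cd163 and Mrc1.

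Set side by side, the damage-associated genes had a median difference of 0.48 and the resident genes one of -0.06. Without wild-type mouse 3 these medians were 0.49 and -0.21, and without wild-type mouse 5 the resident median was 0.10. As deviations from the wild-type mean, averaged over the 4 damage-associated genes, the knock-out mice were at 0.45, 0.69, 0.51, 0.58 and 0.56 and the wild-type mice at 0.04, 0.29, 0.16, -0.39 and -0.09. The mean over the 4 resident genes was -0.29, 0.12, -0.22, 0.09 and 0.15 in knock-out mice and 0.23, 0.08, -0.60, -0.21 and 0.50 in wild-type mice. The damage-associated mean thus separated the genotypes, and the resident mean did not. With Lgals3 left out, the lowest knock-out damage-associated mean was 0.273 (mouse 1) and the highest wild-type one 0.264 (mouse 2). The lists were chosen with earlier results of these data known, so this separation is a description and no test.

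Within a mouse, the damage-associated mean exceeded the resident mean by 0.74, 0.57, 0.73, 0.49 and 0.42 in knock-out mice. In wild-type mice this gap was -0.20, 0.22, 0.75, -0.18 and -0.59. Of the wild-type mice, only mouse 3 reached the knock-out range. Its resident mean of -0.60 was the lowest of all mice, and its damage-associated mean of 0.16 was below that of every knock-out mouse. With Lgals3 left out, the gap was 0.56, 0.44, 0.54, 0.33 and 0.22 in knock-out and -0.22, 0.19, 0.80, -0.22 and -0.55 in wild-type mice. Apart from mouse 3 the genotypes were then still separated, but by as little as the step from 0.19 to 0.22. With each group widened to 10 of the 34 genes, by adding general phagocyte genes to one and Csf1r, Adgre1, C1q and Ms4a7 to the other, the medians were 0.22 and -0.07. The mean deviation over the widened damage-associated group no longer separated the genotypes. It was 0.116 and 0.112 in knock-out mice 1 and 3 and 0.122 in wild-type mouse 1. The gaps, means and medians given here are descriptions of lists of few genes and carry no test.

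The genes of macrophage identity moved little, and 0 of 7 passed the test (0 also at an unadjusted p under 0.05, limma). Spi1 encodes PU.1, the transcription factor that sets the myeloid fate. Spi1 was at 4.91, 4.93, 4.64, 5.04 and 4.78 in knock-out mice, while wild-type mice were at 5.40, 5.09, 4.94, 5.04 and 4.77. Its difference was -0.19 ± 0.13 (SE, 95% interval -0.48 to 0.09, adjusted p = 0.375, limma). Csf1r, the receptor on which macrophage survival depends, was at 7.99, 8.12, 7.75, 8.16 and 8.19 in knock-out mice and at 8.23, 8.19, 8.47, 7.997 and 8.22 in wild-type mice. Knock-out mouse 3 was the lowest and wild-type mouse 3 the highest, and the difference was -0.18 ± 0.12 (SE, 95% interval -0.43 to 0.07, adjusted p = 0.352, limma), or -0.12 without the latter mouse.

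Adgre1 encodes an adhesion receptor that is the classical surface antigen of mouse macrophages. Its knock-out values were 5.72, 6.29, 5.88, 6.22 and 6.21, and its wild-type values were 5.85, 6.06, 5.91, 5.88 and 6.24, and these ranges nearly coincide. The difference in Adgre1 was 0.08 ± 0.14 (SE, 95% interval -0.22 to 0.37, adjusted p = 0.757, limma), so that a change as large as 1.5-fold on the rlog scale lay outside its interval. Lyz2, the lysozyme of myeloid cells, was at 9.46 in wild-type mouse 3 and between 10.25 and 10.76 in the other 9 mice, and its difference of 0.18 became -0.03 without that mouse. Reads of Lyz2 may be shared with its close copy Lyz1, so its values are uncertain. Mpeg1, a pore-forming protein of phagocytes, differed by 0.39 (adjusted p = 0.199, limma), or by 0.24 without wild-type mouse 3. Aif1, an actin-binding protein of macrophages, differed by 0.18 and Cd14, the co-receptor for lipopolysaccharide, by -0.11.

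None of the 7 general leukocyte genes passed the test either (0 at an unadjusted p under 0.05, limma), and their median difference was -0.11. Ptprc, the phosphatase CD45 of all leukocytes, was at 6.16, 5.92, 5.66, 6.11 and 5.81 in knock-out mice and at 6.19, 6.32, 5.16, 5.54 and 5.96 in wild-type mice. The wild-type range enclosed the knock-out range. The difference in Ptprc was 0.10 ± 0.20 (SE, 95% interval -0.34 to 0.53, adjusted p = 0.795, limma), or -0.07 without wild-type mouse 3. The lowest difference of all 34 genes was that of Coro1a, an actin regulator of leukocytes, at -0.26 ± 0.14 (SE), and it did not pass the test (adjusted p = 0.258, limma). The actin bundler Lcp1, the lysosomal protein Laptm5 and the surface protein Cd48 differed by -0.11, -0.11 and -0.12, and the surface proteins Cd53 and Cd52 by 0.24 and 0.11. Without wild-type mouse 3 the differences of Laptm5 and Cd48 were -0.03 and -0.19, and those of Cd53 and Cd52 were 0.14 and 0.22.

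Among Fc receptors and adaptors 0 of 5 passed the test (0 at an unadjusted p under 0.05, limma). Fcer1g and Tyrobp are the adaptors through which Fc receptors and Trem2 signal. They differed by 0.23 and -0.14, so Tyrobp, the partner of Trem2, had a lower mean in knock-out mice while Trem2 had a higher one. Of the receptors for IgG, Fcgr1 and Fcgr2b each differed by 0.12 and Fcgr3 by 0.04. The direction of Fcgr3 turned under median centring (-0.01) and quantile normalization (-0.03), and that of Fcgr2b without wild-type mouse 3 (-0.03), a change that raised Fcgr3 to 0.13. Fcgr2b and Fcgr3 are neighbors with alike sequences, and reads that match both may have been lost or split.

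The oxidase of phagocytes makes superoxide through a catalytic subunit, Cybb, with the help of cytosolic subunits such as Ncf1. Cybb was between 5.42 and 5.85 in knock-out and between 4.87 and 5.51 in wild-type mice, a difference of 0.35 ± 0.14 (SE, adjusted p = 0.121, limma, exact permutation p = 0.0238). It passed in 1 of 18 alternative settings, with adjusted p between 0.0261 and 0.255 (limma) over all of them. Ncf1 differed by -0.11, with overlapping ranges of 5.60 to 6.04 and 5.74 to 6.21. The subunits therefore did not share a direction.

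C1qa, C1qb and C1qc encode the chains of C1q, the recognition protein of the classical complement pathway, which tissue macrophages make. They differed by -0.17, -0.08 and -0.06, and 0 of 3 passed the test (0 at an unadjusted p under 0.05, limma). In all 3 genes the lowest value of all mice was that of knock-out mouse 3, at 8.05, 8.004 and 7.85. The wild-type ranges were 8.46 to 8.96, 8.27 to 8.72 and 8.27 to 8.45. Without knock-out mouse 3 the differences of C1qb and C1qc were 0.03 and 0.05, and without wild-type mouse 3 those of C1qa, C1qb and C1qc were -0.08, -0.03 and -0.04. The MS4A genes Ms4a7 and Ms4a6c, membrane proteins of macrophages, differed by 0.30 and 0.28 (adjusted p = 0.163 and 0.414, limma), and Ms4a6c by 0.16 without wild-type mouse 3. Ms4a6c has close relatives in the same gene cluster, so its values are uncertain.

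Some mice were high or low over many of the genes at once. Knock-out mouse 3 had the lowest value of its genotype for 22 of the 34 genes and the lowest of all 10 mice for 11, and knock-out mouse 2 the highest of its genotype for 16. Wild-type mouse 4 was the lowest of its genotype for 16 genes. The median deviation of the 34 genes from the wild-type mean was 0.01, 0.21, -0.19, 0.22 and 0.16 in knock-out mice and 0.09, 0.04, -0.05, -0.21 and 0.02 in wild-type mice. This spread within a genotype was of the size of the differences between genotypes for most genes. The rise of Lgals3 and Gpnmb was seen in knock-out mouse 3 as well, where Gpnmb had its highest value of all mice. For 22 of the 34 genes the SD was smaller in knock-out than in wild-type mice, with medians of 0.22 and 0.26.

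Wild-type mouse 3 was at the top for some genes and at the bottom for others. Compared with the mean of the other wild-type mice, it was lower by more than 0.7 for Cd163 (-1.12), Lyz2 (-1.04), Ptprc (-0.84), Mrc1 (-0.79), Mpeg1 (-0.75), Fcgr2b (-0.73) and F13a1 (-0.71). It was higher for Cd68 (0.61), Cd52 (0.57), Fcer1g (0.53) and Fcgr3 (0.47). The 17 longer genes, with gene models of 2695 to 18313 bases, had a median deviation of -0.10, and the 17 shorter ones, of 667 to 2589 bases, one of 0.11. Across the 34 genes the deviation correlated with the log2 of the length with r = -0.44 (Spearman's rho = -0.46), and across 14282 tested genes with r = -0.31. These are correlations across genes within 1 mouse, and genes are no independent replicates. With each mouse's trend on length removed, Lgals3 and Gpnmb were still the 2 genes called, and Ptprc turned from 0.10 to -0.01. The part of length in the other differences was not tested.

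**Figure D4:**
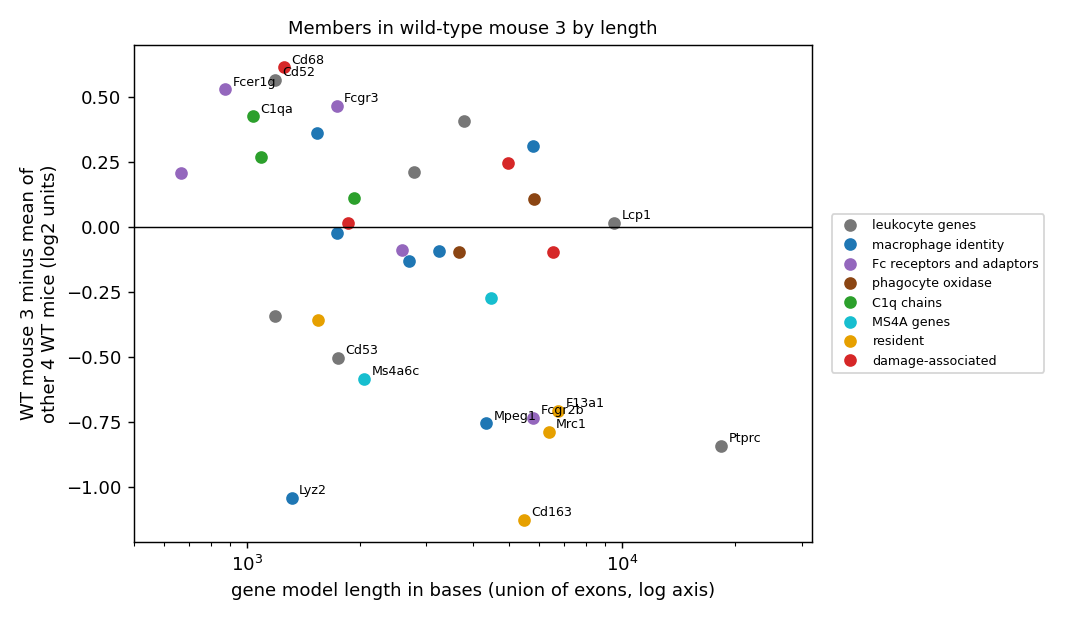
Value of wild-type mouse 3 minus the mean of the other 4 wild-type mice (y axis, log2 units on the rlog scale) for the 34 genes, against gene model length in bases (x axis, log scale), colored by role. Cd163, Ptprc, Mrc1, F13a1 and Fcgr2b, all among the longer 17 genes, lie low, and the short Lyz2 lies low as well, while Cd68, Cd52 and Fcer1g lie high.

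Genes around the macrophage were examined by lists chosen by function. Of the growth factors and chemokines of macrophages, 7 of 13 were expressed enough for the test. Of these, 1 was higher and 0 lower, beside 7.70% and 5.99% of all tested genes. The higher gene was Cx3cl1, the membrane-bound chemokine that binds Cx3cr1, at 7.37, 6.99, 6.65, 6.95 and 7.05 in knock-out and 6.24, 6.46, 6.45, 6.34 and 5.99 in wild-type mice. All knock-out mice were above all wild-type mice, and the rise was 0.70 ± 0.14 (SE, adjusted p = 0.00468, limma). Its receptor Cx3cr1, from a list of 6 chemokine receptors of which 0 of 5 tested passed, differed by 0.43 ± 0.14 (SE, adjusted p = 0.0566, limma). Cx3cr1 passed the expression limit only through the knock-out mice, where it was high, since its wild-type mean was 3.20. The ligands of Csf1r, named after their values were seen, differed by -0.23 (Csf1, adjusted p = 0.259, limma) and -0.07 (Il34, adjusted p = 0.755, limma).

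In a list of 17 further genes known from lipid-associated macrophages, 16 were tested, 4 were higher and 0 lower, beside the 7.70% and 5.99% of all tested genes. Spp1, which encodes osteopontin, rose by 1.33 ± 0.26 (SE, adjusted p = 0.00356, limma), with knock-out values of 7.55 to 7.90 and wild-type values of 5.43 to 7.23. The proteases Ctsk and Ctsl rose by 0.94 and 0.33 (adjusted p = 0.0153 and 0.0375, limma), and the integrin Itgax rose by 0.38 (adjusted p = 0.0302, limma). Spp1, Ctsk and Ctsl are also made by other cells. Of 7 fibroblast genes, 3 were higher (Lum by 0.99, Col3a1 by 0.52 and Col1a1 by 0.50) and 0 lower. Without wild-type mouse 3, 2 were higher. Dcn, Dpt, Pdgfra and Pi16 differed by 0.40, 0.16, 0.08 and -0.03 and were not called. Summed over the 7, levels (2 to the power of rlog) ran from 13149 to 20023 in knock-out and 9719 to 19199 in wild-type mice. None of the 7 fibroblast genes was at 0. Their part in the rise of Lgals3 and Gpnmb was not tested. The median of the 16 lipid-associated genes was 0.07, and 9 of them had a higher mean in knock-out mice.

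Of 16 further genes of resident macrophages, 13 were tested, and 0 were higher and 2 lower, beside 7.70% and 5.99% of all tested genes. Fcna, a ficolin, fell by 0.67 and Cd209f, a C-type lectin, fell by 0.61 (adjusted p = 0.0215 and 0.0262, limma), and the median of the 13 was -0.21. Without wild-type mouse 3, 4 of the 13 were lower, with Cbr2 (-0.31) and Maf (-0.30) added, both named after their values were seen. Mmp9, a gelatinase, was the 1 of 5 tested effector genes that passed and fell by 0.63 (adjusted p = 0.0127, limma). Thus the 4 resident genes described above gave no call, while 2 of these further genes fell. Whether the lists differ from each other was not tested.

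**Figure D5:**
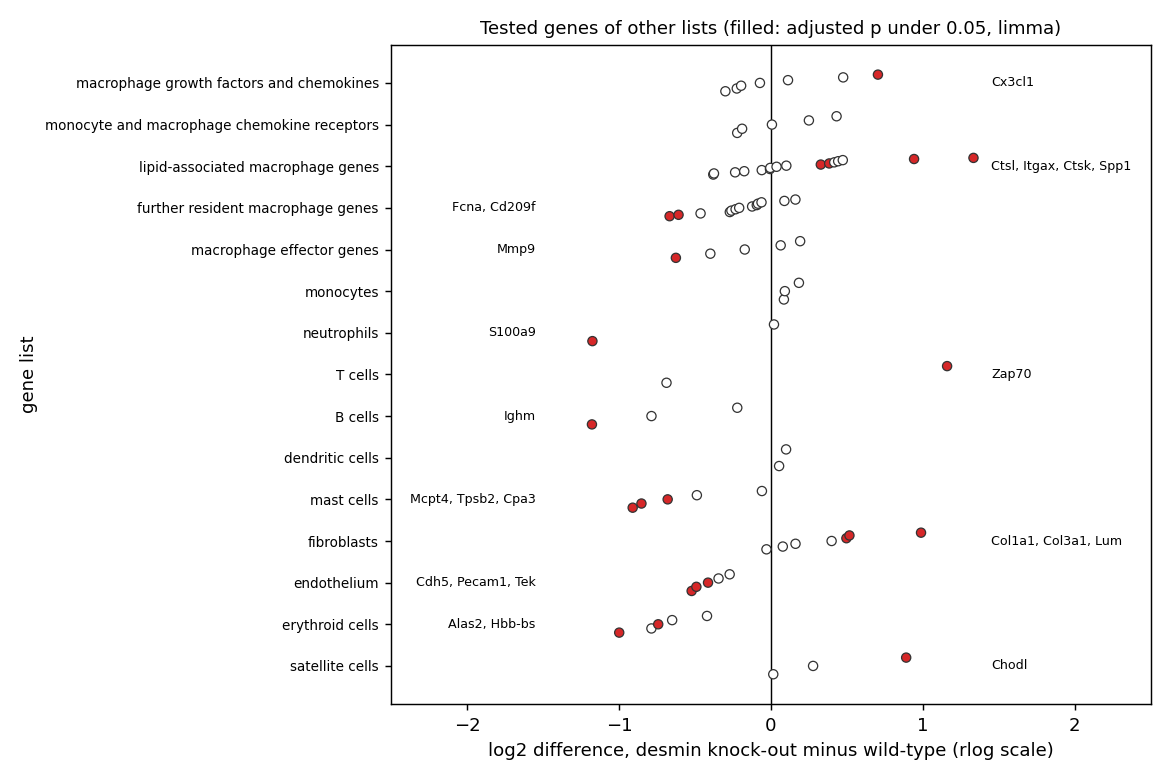
Difference between desmin knock-out and wild-type muscle (x axis, log2 units on the rlog scale) for the tested genes of the other lists (rows), one point per gene, filled where the adjusted p was under 0.05 (limma) and with the filled genes named at the side of their direction. Cx3cl1, Spp1, Ctsk, Itgax and Ctsl are the filled points to the right in the macrophage rows.

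Markers of other leukocytes were mostly under the expression limit. The number tested was 3 of 5 for monocytes, 2 of 12 for neutrophils, 2 of 14 for T cells, 0 of 6 for NK cells, 3 of 8 for B cells and 2 of 6 for dendritic cells. Of these, Zap70, a kinase of T cells, was higher by 1.16, while S100a9, a calprotectin subunit of neutrophils, and Ighm, the heavy chain of IgM, were each lower by 1.18, and all 3 passed the test (adjusted p = 0.000225, 0.000254 and 0.000248, limma). The other tested gene of the T cell list, Cd247, went the other way (-0.69, adjusted p = 0.0698, limma), and the other one of the neutrophil list, S100a8, differed by 0.02, so no direction of these lists can be read from 1 gene each. S100a9 passed the expression limit only through the wild-type mice, where it was high, since its knock-out mean was 2.84. For monocytes 0 of 3 passed, with differences of 0.08 to 0.18. Without wild-type mouse 3 the differences were 0.29 for Plac8, -0.11 for Vcan and -0.0028 for Itgam, so the direction was not shared. Across all tested genes 7.70% were higher and 5.99% lower. In the mast cell list 3 of 5 tested genes were lower, led by Mcpt4, which fell by 0.91, and in the endothelial list 3 of 5, led by Cdh5, which fell by 0.52. In the erythroid list 2 of 5 genes were lower as well, Alas2 by 1.00 and Hbb-bs by 0.74. Lists of adipocytes and Schwann cells showed 0 calls among 4 and 5 genes, 1 of 3 satellite cell genes was higher (Chodl, by 0.89) and 1 of 7 fast fiber genes lower (Myh4, by 0.71). Another fast myosin, Myh1, went the other way, at 0.58 (adjusted p = 0.132, limma), and was called higher without wild-type mouse 3 (0.79, adjusted p = 0.0052, limma). Without that mouse the calls were also 2 in place of 3 for fibroblasts and for endothelium, which lost Col3a1 and Tek, and 3 in place of 2 for erythroid genes.

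The 34 genes lie on many chromosomes, and 5 of them share chromosome 1 with Des (Fcgr2b, Fcgr3, Fcer1g, Ptprc and Cd48), the nearest at a distance of 62.7 Mb. In GENCODE M21, 13 of the genes are overlapped by another gene and 9 by one on the opposite strand, Coro1a and Ncf1 by protein-coding genes among them. The library kit keeps strand, but whether strand was used in counting is not given in the sources used here, so reads of such partners may be included in their values. Lgals3, Gpnmb, Trem2, Cd68 and Cd163 have no overlapping gene.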

How the data were processed

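RNA of gastrocnemius muscle was prepared with a stranded mRNA kit from 5 mice of each genotype. The submitters' processing notes name cutadapt 2.5, STAR 2.5.4a, Subread 1.6.1 with featureCounts and the build GRCm38. The methods name featureCounts in another version, run on Galaxy with mm10 genes, and no aligner. According to both, the authors used DESeq2. The authors deposited log2-scale rlog values, without counts, so depth per mouse is unknown and its counting error has no interval. Since the values are no counts, the count test of the study could not be run.

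GENCODE M21 (GRCm38) gave symbols and positions. Where a gene's mean reached log2(10), it was tested by limma 3.58.1 under R 4.3.3 (lmFit, then eBayes with trend, genotype as the only term, two-sided, Benjamini-Hochberg adjustment over 14289 genes), and single genes also with an exact two-sided permutation test. The fit was tested on simulated data with independent normal noise, of equal spread in both genotypes for a gene. Spread in the deposited values is not equal for all genes, and that case was not simulated. Intervals are limma's 95% intervals. Limma's p-values set a difference against the spread between columns of the same genotype, each column taken as a separate mouse. The fit used a common variance per gene for both genotypes.

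The members and all lists were chosen with earlier results of these data known. Values of every mouse are given for members with an adjusted p under 0.05, the resident and damage-associated members and Csf1r, Adgre1, Ptprc and Spi1. Each other list is named by at most the 3 genes lowest in adjusted p. Ctsl, Csf1, Il34, Dcn, Dpt, Pdgfra, Pi16, Cbr2, Maf and Myh1 were added after their values were seen. Promoter windows came from RefSeq (GRCm38.p6).

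Alternatives were quantile normalization, median centring, sample weights, a prior variance without trend, no limit or one of log2(50), a replicate block, a Y-linked covariate, wider lists, an adjusted p under 0.01 and each mouse left out. Removal of each mouse's trend on gene model length was added after the data were seen.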

Additional observations from a re-analysis of the deposited data

Results flagged for a closer look

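Within a genotype, 1 mouse lay far from the other 4 in 6 of 70 groups of 5 mice examined (the 34 genes and Des in both genotypes), where chance gives about 1 in 20, or 3.5. The groups share the same 10 mice and are not independent, so these counts were not compared by a test. Wild-type mouse 3 was the distant mouse for Lyz2, at 9.46 with the nearest mouse at 10.40, and for Des, at 17.74 with the nearest at 16.55. In knock-out mouse 2, Cd163 was at 7.06 (nearest 7.15) and Ms4a6c at 4.90 (nearest 5.20). In knock-out mouse 3, Lcp1 was at 6.05 (nearest 6.91), and in wild-type mouse 4, Cybb was at 4.87 (nearest 5.35). The low Cd163 value stands out only because the other knock-out mice lay between 7.15 and 7.17, and it is not low beside the wild-type mice.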

How the results depend on the processing

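Lgals3 was called under all 19 alternatives and Gpnmb under 4 of them. The number of changed genes among the 34 was 2 and became 1 with no expression limit, median centring, quantile normalization or an adjusted p under 0.01, and was 1 to 2 with each mouse left out (1 without any knock-out mouse or wild-type mouse 1, 4 or 5). Other settings added calls. Trem2 was called in 3 alternatives, Cybb in 1 and F13a1 in 1, the last with the Y-linked covariate. The replicate numbers did not pair the mice (correlations of same-numbered mice between -0.22 and 0.07), and with the replicate block 1 of the 34 genes was called, beside 1579 of all genes. The count of all changed genes, 1956, was 4220 with sample weights and 994 at an adjusted p under 0.01. Without single mice it was 1400 to 2496, the highest without wild-type mouse 3. The 24 called genes of the other lists became 12 with no limit, 15 at log2(50), 40 with sample weights, 9 at an adjusted p under 0.01 and 13 to 26 with each mouse left out. The median of the 34 genes was -0.044 with the Y-linked covariate, and the damage-associated median was 0.22 with the wider list. Of 634 alternative values of single members, 592 kept direction and side of the threshold, 15 lost and 5 gained a call, and 22, in 11 members, changed direction, none of them called. With the Y-linked covariate these were Mrc1 (-0.0015), Lyz2 (-0.051), Fcgr2b (-0.056) and Ptprc (-0.15). With sample weights they were Laptm5 (0.060), Ptprc (-0.19) and C1qc (0.041), for Fcgr3 median centring (-0.0055) and quantile normalization (-0.029), and for Ptprc the removed length trend (-0.0089). With single mice left out, the ranges were -0.23 to 0.18 for Cd163, -0.029 to 0.24 for Lyz2, -0.029 to 0.21 for Fcgr2b, -0.048 to 0.13 for Fcgr3, -0.073 to 0.22 for Ptprc, -0.19 to 0.082 for Lcp1, -0.23 to 0.014 for Folr2, -0.17 to 0.026 for C1qb and -0.15 to 0.051 for C1qc. The cause of these changes was not tested. Members under log2(50) had no value at that limit, and the unknown depth limits all values of low genes such as Fcgr1.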
